A study of Drosophila melanogaster with 2 samples.

Results

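The genes described here encode the protein factors that run translation and the enzymes that charge its tRNAs. They were chosen by name from the Ensembl annotation as protein-coding genes whose symbol starts with eIF, eEF or eRF, or is 3 letters followed by RS, with or without the ending -m. The rule gave 86 genes of 13945. It uses no measured value, but it was chosen with earlier results of these data known. They comprised 44 initiation factors, 8 elongation factors, 2 release factors, 17 tRNA synthetases without -m and 15 with -m, where FlyBase uses -m for mitochondrial forms. alpha-PheRS, beta-PheRS and GluProRS fall outside the rule by their names, and GluProRS is given with other translation genes.

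The measurements are chromatin immunoprecipitation with sequencing against GFP in whole Drosophila melanogaster embryos of strain Mad-GFP, which carry a transgene for Mad with GFP fused to its C terminus. There was 1 group, of mixed sex and aged 0 to 24 h, with 2 biological replicates and no second condition. The labels do not say whether untagged Mad was also present, and they name the antibody as one against GFP in one field and as Mad in another. Whole embryos mix all cell types, so the cells that gave a peak cannot be told from these data. The authors deposited 30000 peaks for each replicate, 30000 called on both replicates together (the pooled list) and 3590 of these kept by a threshold on reproducibility (the thresholded list). Every thresholded peak was in the pooled list with the same signal. The pooled list holds peaks together with background. A peak's signal is the value that the authors' caller gave it, and its summit is the base it marked as highest. How deeply each library was read is not stated, so no counting interval could be made.

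Mad is the receptor-activated Smad of bone morphogenetic protein signalling, which enters the nucleus when it is phosphorylated and binds DNA together with Medea. Translation starts when initiation factors bring the initiator tRNA and the small ribosomal subunit to an mRNA. Elongation factors then deliver charged tRNAs and move the ribosome, and release factors end the chain at a stop codon. Each tRNA synthetase joins 1 kind of amino acid to its tRNAs. Nearly every growing cell carries out translation, though not every gene listed here need act in each cell.

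Strong Mad-eGFP summits lay at the transcription start sites (TSSs) of a larger share of these genes than of all genes. Of the 86 genes, 29 (33.7%) had a thresholded summit within 500 bp of one of their annotated TSSs, where 2753 of all 13945 protein-coding genes (19.7%) did. A further 33 (38.4%) had only a weaker summit of the pooled list there, against 35.2% of all genes. No pooled summit lay at the remaining 24 (27.9%), against 45% of all genes. A gene without a pooled summit is one whose TSSs gave no peak above the lowest signal listed, 20.9, and it cannot be called free of Mad-eGFP. The share of the list was set beside that of all genes without a test.

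The roles differed in how many genes had such a summit. Thresholded summits lay at 14 of 44 initiation factor genes (31.8%), 4 of 8 elongation factor genes (50%), 2 of 2 release factor genes, 8 of 17 synthetase genes without -m (47.1%) and 1 of 15 with -m (6.67%). All 9 other synthetase genes without -m had a weaker pooled summit, so each of these 17 genes had a summit in the pooled list. That list also holds background, and 55% of all genes had a summit of it at a TSS. Of the 9, TrpRS had no peak in replicate 1. Of the 15 synthetase genes with -m, 8 had a weaker summit and 6 had none. These differences between roles were not tested.

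**Figure D1:**
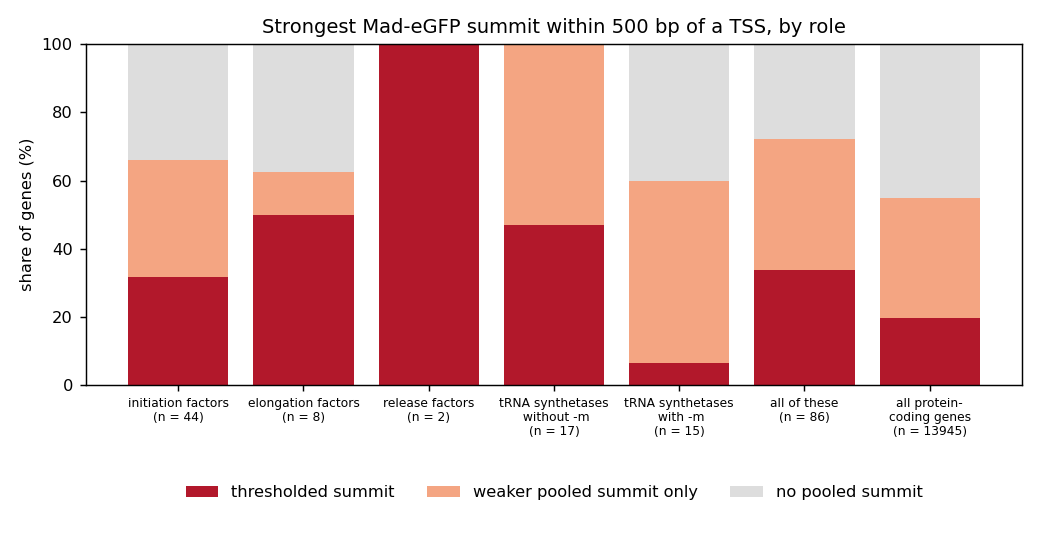
Share of genes (%, vertical axis) by their strongest summit within 500 bp of a TSS, for the 5 roles, all 86 genes and all 13945 protein-coding genes. The thresholded share (dark red) is 33.7% for the 86 genes and 19.7% for all genes, and it is lowest for synthetases with -m, at 6.67%.

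The sequences under 6 of these summits are shown because they hold the motifs that are described further on. Each line gives 151 bases around the summit on the strand of the gene, read from RefSeq's release 6 genome, whose coordinates are those of dm6. Capitals mark TATCGATA, the site of DREF (the first 5 sequences), GGTCACACT, the site of M1BP (eIF5B), CAGCTG (IleRS) and GCCGNCG, a Mad site (eIF3a). The places, in the same order as the lines, are chr3R:29220069-29220219 on the plus strand, chr3R:4433884-4434034 on the minus strand, chr3L:21824827-21824977, chr3L:22288485-22288635 and chr3L:20348241-20348391 on the plus strand, and chr3L:3460547-3460697 on the minus strand. The IleRS window ends upstream of the gene's TSS, and the other windows include the gene's TSS nearest to the summit.
eEF1gamma: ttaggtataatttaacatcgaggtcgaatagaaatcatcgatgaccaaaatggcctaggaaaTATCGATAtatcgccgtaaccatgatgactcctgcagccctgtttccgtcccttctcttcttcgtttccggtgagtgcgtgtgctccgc
eIF3a: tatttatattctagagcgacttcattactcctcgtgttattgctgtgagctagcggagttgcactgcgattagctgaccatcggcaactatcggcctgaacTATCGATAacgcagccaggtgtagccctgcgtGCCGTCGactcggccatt
eIF2A: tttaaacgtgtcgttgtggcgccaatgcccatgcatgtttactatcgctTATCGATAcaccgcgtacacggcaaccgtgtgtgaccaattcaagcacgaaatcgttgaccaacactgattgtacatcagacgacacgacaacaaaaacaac
IleRS: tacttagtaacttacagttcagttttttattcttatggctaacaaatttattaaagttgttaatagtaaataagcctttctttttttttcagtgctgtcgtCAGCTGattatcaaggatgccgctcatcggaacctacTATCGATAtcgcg
eRF1: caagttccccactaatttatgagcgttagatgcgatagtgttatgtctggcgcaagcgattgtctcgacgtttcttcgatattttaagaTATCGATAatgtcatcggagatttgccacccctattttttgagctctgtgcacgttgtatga
eIF5B: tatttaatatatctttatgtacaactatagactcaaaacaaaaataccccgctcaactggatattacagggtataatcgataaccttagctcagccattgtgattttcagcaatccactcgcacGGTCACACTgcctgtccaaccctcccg

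Among initiation factors the strongest peak was that of eIF6, which binds the large ribosomal subunit and keeps it from joining too early. Its signal was 471 in the pooled list, with 230.0 in replicate 1 and 244 in replicate 2, and it ranked 65th of the 3590 thresholded peaks. Both replicates were alike there. The summit lay at 23850428 on arm 2R, 127 bp upstream of the TSS, and no other protein-coding gene had a TSS within 500 bp.

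eIF1, which guards the choice of the start codon, had a pooled signal of 284 (131 in replicate 1 and 147 in replicate 2). That summit was 326 bp upstream of eIF1 and 55 bp upstream of RpL28, a ribosomal protein gene on the other strand. A second thresholded summit, with a signal of 128, lay 122 bp upstream of the eIF1 TSS and 259 bp upstream of RpL28, so it was nearer to eIF1.

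The eIF3 complex, the scaffold that holds the initiation machinery on the small subunit, was split. Of its 13 subunit genes (a to m, with d1, f1 and g1 for the paralogue pairs), 5 had a thresholded summit, 5 a weaker one and 3 none. eIF3c led at 229 (110.1 in replicate 1 and 119.6 in replicate 2) and a summit 3 bp downstream of its TSS. eIF3h had 185 (86.8 in replicate 1 and 94.2 in replicate 2). That summit was inside the gene, 264 bp downstream of the inner of its 2 TSSs. A second summit of 147 was 18 bp downstream of the same TSS and 81 bp upstream of senju. eIF3a had 147 (79.9 in replicate 1 and 67.8 in replicate 2), eIF3d1 had 112, and eIF3m had 71.5 (43.2 in replicate 1 and 28.95 in replicate 2). Replicate 1 was the higher at all 3. The weaker summits were those of eIF3f1 (67.9), eIF3b (36.5), eIF3l (34.1), eIF3j (23.8) and eIF3i (22.9, with no peak in replicate 1 and 25.3 in replicate 2), and eIF3e, eIF3g1 and eIF3k had none. The signal thus spanned the range from well above the threshold to the end of the pooled list within 1 complex.

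Among the genes of eIF2 and eIF2B few peaks were strong, but the counts are too small to set apart from the 19.7% of all genes. None of the 3 subunit genes of eIF2, the GTPase that binds this tRNA, had a thresholded summit: eIF2beta had a pooled signal of 58.5, eIF2gamma 56.2 and eIF2alpha no pooled summit. Of the 5 genes of eIF2B, which reloads eIF2 with GTP, eIF2Bepsilon alone had a thresholded summit. Its signal of 72.4 (42.5 in replicate 1 and 23.7 in replicate 2) was near the lowest kept, 70.5, and its summit was nearer to Ocrl (44 bp) than to itself (63 bp). eIF2Bbeta, eIF2Bgamma and eIF2Bdelta had weaker summits with signals of 60.4, 40.5 and 36.5, and eIF2Balpha had none.

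In the cap-binding complex 0 of 3 genes had a thresholded summit, again too few genes to set apart from the 19.7% of all genes. eIF4A (an RNA helicase), eIF4E1 (the cap-binding protein) and eIF4G1 (their scaffold) had weaker summits only, with pooled signals of 59.8, 56.3 and 40.3. By contrast, eIF4EHP, a cap-binding protein that represses translation, had a thresholded peak of 189 (85.3 in replicate 1 and 104 in replicate 2). This summit lay 270 bp upstream of eIF4EHP and 106 bp upstream of CG18428. eIF4G2, a paralogue of eIF4G1 needed in male meiosis, had 97.8, with 59.9 in replicate 1 and 28.8 in replicate 2. That peak lies 91 bp upstream of a TSS shared with CG33111, and replicate 1 was the higher.

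Further thresholded summits lay at eIF2A (146), eIF2D (97.7), eIF1A (97.4) and eIF5B (93.7). eIF2A and eIF2D can bind initiator tRNA apart from eIF2, while eIF1A acts in scanning and eIF5B joins the subunits. At eIF2A the signal was 59.2 in replicate 1 and 80.8 in replicate 2, and the summit was 63 bp upstream of the TSS. eIF1A had 47.1 in replicate 1 and 48.9 in replicate 2, and eIF5B 38.9 in replicate 1 and 56.0 in replicate 2. The replicates were thus close at eIF1A, and replicate 2 was higher at the other two. Of the initiation factor genes not yet given, eIF4H1 (39.7) and eIF4E6 (33.5) had weaker summits, and eIF3d2, eIF3f2, eIF3g2, eIF4B, eIF4E3, eIF4E4, eIF4E5, eIF4E7, eIF4H2 and eIF5 had none.

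Elongation factor peaks were among the strongest and most of them sat at one of the gene's own TSSs. eEF1gamma, a subunit of the exchange factor that recycles eEF1A, had 311 (142 in replicate 1 and 169 in replicate 2), ranked 169th, 28 bp upstream of its TSS. eEF2, the GTPase that moves the ribosome along, had 186 (97.7 in replicate 1 and 86.9 in replicate 2). Its summit was 6 bp upstream of the inner of its 2 TSSs. eEF5, the fly eIF5A, which helps form difficult peptide bonds, had 165 (92.2 in replicate 1 and 73.3 in replicate 2), 16 bp upstream. eEF1alpha1, which brings charged tRNA to the ribosome, had 147 (57.1 in replicate 1 and 90.4 in replicate 2), 44 bp upstream of an inner TSS. A second summit of 71.2 lay 311 bp upstream of its outermost TSS. That summit was nearer to ERp60 (155 bp downstream of that gene's TSS). Replicate 1 was higher at eEF2 and eEF5, and replicate 2 at eEF1gamma and eEF1alpha1.

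No TSS of another protein-coding gene lay within 500 bp of the strongest summits of these 4 genes. The other elongation factor genes were eEF1beta, with a weaker summit of 36.1 that lay 453 bp downstream of its TSS, and eEF1delta, eEF1alpha2 and eEFSec, which had none. Within the eEF1 complex the thresholded genes were thus eEF1alpha1 and eEF1gamma. The paralogue eEF1alpha2 had no pooled summit.

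Both release factor genes had a thresholded summit. eRF1, which reads stop codons, had 111 in the pooled list, with 36.1 in replicate 1 and 76.6 in replicate 2. eRF3, its GTPase partner, had 72.9, with 42.6 in replicate 1 and 37.2 in replicate 2. The summits were 39 and 76 bp upstream of the TSSs. Replicate 2 was the higher at eRF1, where the replicates differed most among all 29 peaks (log2 ratio 1.09), and eRF3 was close to the threshold.

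Of the synthetase genes without -m, SerRS had the strongest peak, at 264 (140.2 in replicate 1 and 120.4 in replicate 2). Its summit lay 46 bp downstream of the SerRS TSS and 54 bp upstream of CG17260 on the other strand. IleRS had 165 (81.6 in replicate 1 and 87.7 in replicate 2), 105 bp upstream. AspRS had 137 (64.2 in replicate 1 and 81.9 in replicate 2). That summit lay inside the gene, 136 bp upstream of an inner one of its 3 TSSs. It was 82 bp downstream of a TSS of Nmda1 on the other strand. The replicates ordered these 3 alike, with SerRS first. AsnRS (119.6), ThrRS (111), HisRS (80.6), ValRS (80.5) and MetRS (76.5) made up the rest. ThrRS had 56.2 in replicate 1 and 72.0 in replicate 2, and MetRS 43.9 in replicate 1 and 37.4 in replicate 2. AsnRS had 51.4 in replicate 1 and 64.4 in replicate 2, and HisRS 45.02 in replicate 1 and 32.7 in replicate 2. Replicate 2 was higher at ThrRS and AsnRS, and replicate 1 at MetRS and HisRS. Each of the 8 summits had a TSS of another protein-coding gene within 500 bp.

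The weaker peaks of the other 9 genes of this kind ranged in signal from 30.1 to 66.7, with a median of 40.2. GlnRS was highest at 66.7 (40.7 in replicate 1 and 27.3 in replicate 2), with a summit 2 bp upstream of its TSS. GlyRS followed with 64.5 (33.1 in replicate 1 and 28.3 in replicate 2), 319 bp upstream. ArgRS, CysRS, TrpRS, LeuRS, LysRS, TyrRS and AlaRS had between 46.1 and 30.1. Both leading genes fell just short of the lowest thresholded signal.

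Among synthetases with -m, PheRS-m alone had a thresholded summit, at 86.0 (30.9 in replicate 1 and 49.9 in replicate 2), 74 bp upstream of its TSS. No TSS of another protein-coding gene was within 500 bp. CysRS-m came nearest to the threshold from below, with 69.4 (28.5 in replicate 1 and 40.1 in replicate 2), and ArgRS-m had 63.8 (40.1 in replicate 1 and 21.4 in replicate 2). Replicate 2 was higher at CysRS-m and replicate 1 at ArgRS-m. The other weaker summits, at LeuRS-m, AlaRS-m, AspRS-m, TrpRS-m, IleRS-m and AsnRS-m, had signals from 39.9 to 27.6. No pooled summit lay at MetRS-m, SerRS-m, GluRS-m, ProRS-m, ValRS-m or TyrRS-m.

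A few genes had a thresholded summit just beyond 500 bp. The third strongest peak of the whole list, with a signal of 1205, lay 682 bp upstream of eIF2Bbeta, but only 37 bp upstream of Ugalt. A peak of 267 lay 834 bp upstream of LeuRS-m, with no TSS of another protein-coding gene within 500 bp. At eIF2Bdelta a peak of 74.7 lay 721 bp upstream, and it was 332 bp upstream of CG30414. These 3 genes each also had a weaker summit inside 500 bp, with signals of 60.4, 39.9 and 36.5. The weaker peak of LeuRS-m had 37.3 in replicate 1 and 21.6 in replicate 2, and that of eIF2Bdelta no peak in replicate 1 and 33.1 in replicate 2. At the threshold itself, eIF3m (71.5), eIF2Bepsilon (72.4) and eRF3 (72.9) were the last inside it, and CysRS-m (69.4), eIF3f1 (67.9; 23.9 in replicate 1 and 44.5 in replicate 2) and GlnRS (66.7) the first outside.

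**Figure D2:**
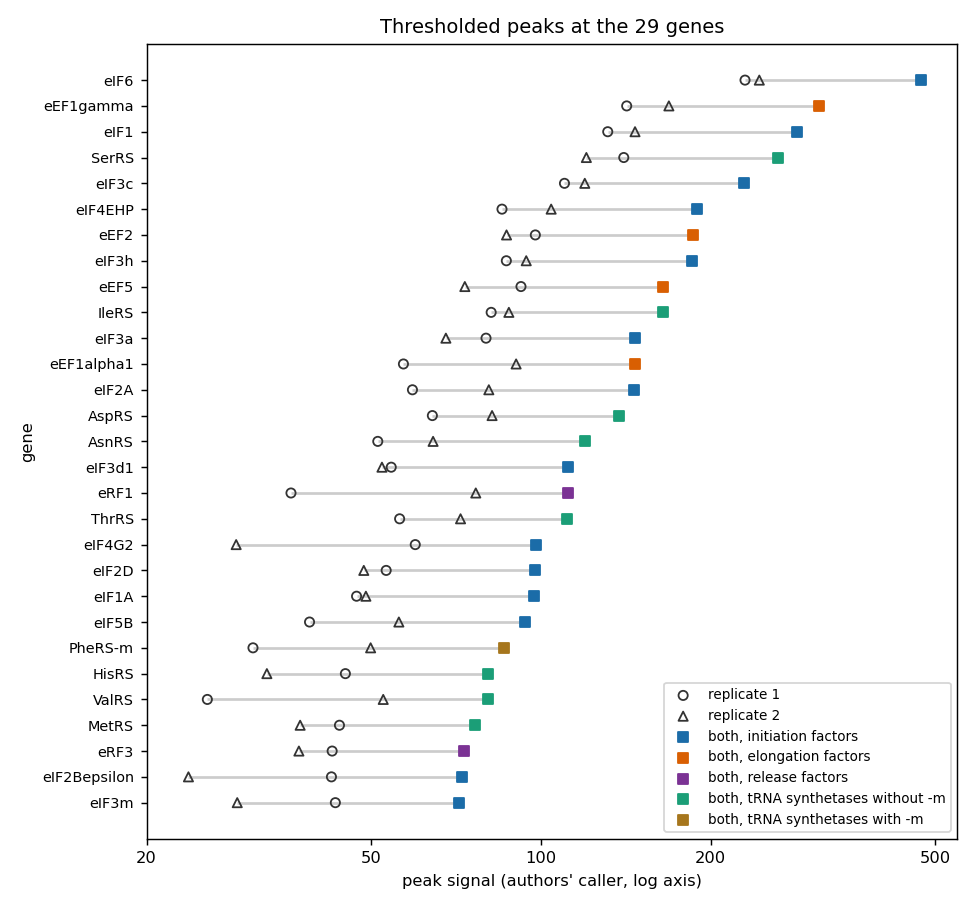
Signal (horizontal log axis) of the strongest thresholded peak at each of the 29 genes, in the list of both replicates (squares, coloured by role), replicate 1 (circles) and replicate 2 (triangles). eIF6 leads at 471 and eIF3m closes the list at 71.5, and the replicate points lie apart most at eRF1, eIF4G2 and ValRS.

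Where they were present, the peaks were about as strong as those of other genes. The 29 genes had signals from 71.5 to 471 with a median of 119.6 (quartiles 93.7 and 185), and all 2753 genes with a thresholded summit at a TSS had a median of 115.2 (quartiles 86.3 and 166). Of the 29, 13 (44.8%) were among the 1000 strongest thresholded peaks, against 32.9% of the 2753. By role the medians were 129 for initiation factors, 175 for elongation factors, 92.2 for release factors and 115.5 for synthetases without -m. Of the strongest peaks at the 4 elongation factor genes with a thresholded summit, the lowest was that of eEF1alpha1 with 147. That is above the median of each other role.

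The replicates gave similar orders. Across the 29 peaks the replicate signals correlated with a Spearman coefficient of 0.779 and, as log2 values, a Pearson coefficient of 0.797, against 0.731 and 0.814 for 2749 genes in all. The points are peaks that were kept by their joint signal, so these are descriptions. The median signal of the 29 was 57.1 in replicate 1 and 72.0 in replicate 2, and replicate 2 was higher at 17 of 29 (58.6%), against 72.8% of all genes with such a peak. Their median log2 ratio of replicate 2 to replicate 1 was 0.10 (SD 0.49 across peaks), against 0.24 (SD 0.47) for all genes.

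Of the 29 peaks, 21 (72.4%) overlapped a peak among the 3590 strongest of both replicates, against 77.6% of all genes with such a peak. Another 6 were among the strongest of replicate 1 alone, namely eIF4G2, eIF2Bepsilon, eIF3m, eRF3, HisRS and MetRS. ValRS and PheRS-m were so in replicate 2 alone. Of all 2753 genes with such a peak, 290 were so in replicate 1 alone and 299 in replicate 2 alone. The largest ratios toward replicate 2 were at eRF1 (log2 1.09) and ValRS (1.04, from signals of 52.5 in replicate 2 and 25.6 in replicate 1), and the largest toward replicate 1 at eIF4G2 (-1.05) and eIF2Bepsilon (-0.84). All 8 peaks that were strong in 1 replicate alone had pooled signals under 98, while the 18 strongest peaks were among the strongest of both.

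Taken from each replicate by itself, the count was close. The 3590 strongest peaks of replicate 1 gave 30 of the 86 genes a summit at a TSS, against 19.8% of all genes, and those of replicate 2 gave 26, against 19.5%. Genes without a thresholded summit that entered were GlnRS, ArgRS-m and LeuRS-m in replicate 1, and eIF3f1, eIF2gamma and CysRS-m in replicate 2. None entered in both.

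**Figure D3:**
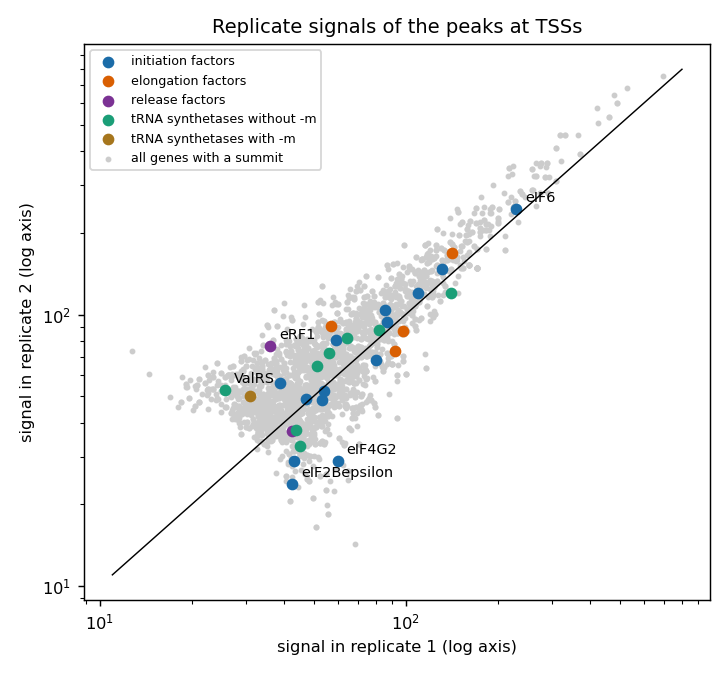
Signal in replicate 1 (horizontal log axis) and replicate 2 (vertical log axis) of the strongest thresholded peak at a TSS, for the 29 genes (coloured by role) and for all genes with such a peak (grey), with the line of equal signal. The 29 points follow the grey cloud, and eIF4G2 and eIF2Bepsilon lie furthest below the line.

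Summits sat close to the TSS. The median summit of the 29 genes was 63 bp upstream of the nearest own TSS (quartiles 104 and 22 bp upstream), and that of all 2753 genes 107 bp upstream (quartiles 197 and 40 bp). It lay within 100 bp of the TSS at 20 of 29 (69%), against 44.1% of all genes, and upstream at 25 of 29, against 87.3%. The summits downstream were those of SerRS, eIF3c, eIF3h and eIF3m. At eIF3h, eIF2A, eIF5B, eEF2, eEF1alpha1 and AspRS the nearest TSS was an inner one, so the summit lay inside the gene. The farthest upstream was that of ValRS, at 456 bp, which was 57 bp upstream of Kdm4B on the other strand.

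**Figure D4:**
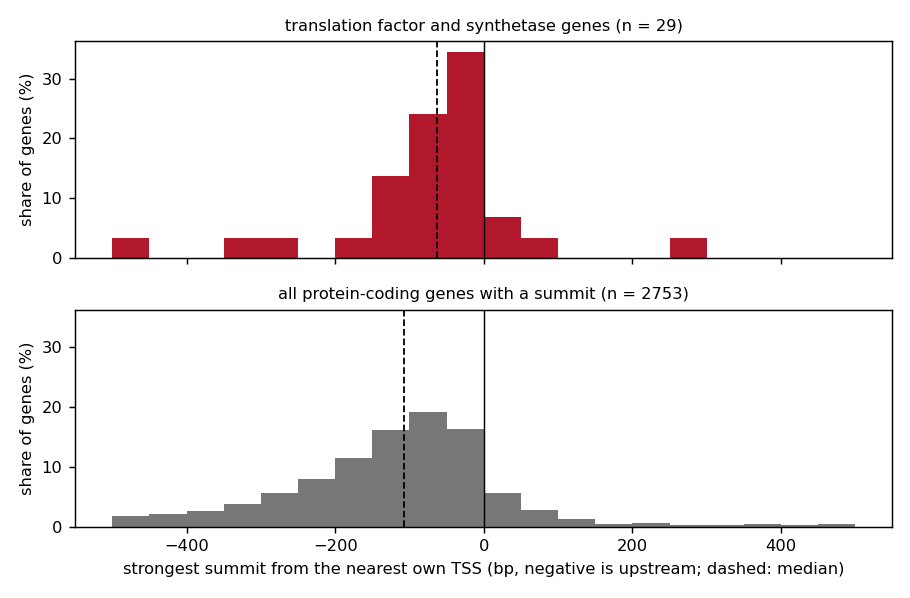
Share of genes (%, vertical axis) by the distance in bp from the nearest own TSS to the strongest thresholded summit (horizontal axis, bins of 50 bp), for the 29 genes (top) and all 2753 genes (bottom), with dashed medians. The median is 63 bp upstream at the 29 genes and 107 bp upstream at all genes.

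Many of the peaks could not be given to 1 gene alone. Another protein-coding gene had a TSS within 500 bp of the summit at 18 of 29 (62.1%), against 59.5% of all genes with such a peak. Within 250 bp, and among the 1000 strongest peaks, the share was lower than that of all genes (33.3% against 49.2%, and 46.2% against 63.8%). At 16 of the 18 the neighbour was on the opposite strand, against 1574 of the 1637 genes in all with such a neighbour. At eIF4G2 and HisRS the neighbour (CG33111 and Bx) was on the same strand and had its TSS at the same base. No other TSS was nearer than the gene's own at 22 of 29 (75.9%), against 71% of all genes with such a peak. The neighbour was the nearer one at 7 genes: RpL28 for eIF1, CG18428 for eIF4EHP, CG1074 for eIF3a, Vps39 for eIF1A, Ocrl for eIF2Bepsilon, Nmda1 for AspRS and Kdm4B for ValRS. The 11 peaks with no other TSS had a median signal of 147 and the 18 with one had 111, while in all genes these medians were 108 and 119.8. They included all 4 elongation factors, eIF6, eIF3c, eIF3d1, eIF2A, eIF2D, eIF5B and PheRS-m.

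Genes with several annotated TSSs have more places for a summit. Of the 30 genes with 2 or more TSSs, 17 (56.7%) had a thresholded summit, against 31.4% of all such genes, and of the 56 with 1 TSS, 12 (21.4%) had one, against 15.5%. The 86 genes had 2 or more TSSs in 34.9% of cases and all genes in 26.5%. By chromosome arm, a thresholded summit lay at 9 of 21 of the genes on 2R (against 19% of all genes there), 7 of 20 on 3R (21.5%), 6 of 12 on 2L (19.6%), 5 of 22 on 3L (20.2%), 2 of 10 on the X (17.8%) and 0 of 1 on chromosome 4 (13.8%). On 3L and the X the counts were near the share of all genes.

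The motif seen most at these summits was TATCGATA. DREF, the factor that binds it, acts at promoters of genes for growth and replication. The motif, which is its own reverse complement, occurred within 100 bp of 8 of 29 summits (27.6%). Of all genes with such a summit, 11% had it there. Flanks are windows of the same width 600 bp to each side. The motif was in 0 flanks of the 29 and in 0.363% of those of all genes, so it was rare in the flanks of both. The genes were eEF1gamma, eIF1, eIF3a, eIF2A, eIF1A, eRF1, IleRS and PheRS-m. From the gene's TSS nearest to the summit, its centre was 37.5 bp upstream at eEF1gamma, 34.5 bp at eIF3a and 85.5 bp at eIF2A. It was 38.5 bp upstream at IleRS and 21.5 bp at eRF1, as printed above. At eIF1 and eIF1A it was 292.5 and 198.5 bp upstream, on the side of the neighbour, and at PheRS-m 3.5 bp downstream. Peaks with the motif had a median signal of 147 over 8 genes, and those without had 112 over 21, while in all genes the medians were 111 and 116.

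At the summits the other sites were rarer, and Mad's own was not frequent. GCCGNCG, a GC-rich Mad site, was at 2 summits (eIF3a and MetRS, 6.9%), against 4.94% of all genes. It was in 13.8% of the flank windows of the 29 and in 13.2% of those of all genes, so in both it was rarer at summits. GTCTAGAC, the Smad palindrome, was at 0, against 0.0363%. GGTCACACT of M1BP was at 2 (eIF5B and ValRS), against 6.03%, and CATCNCTA (Ohler motif 7) at 3 (eIF3c, eIF3m and eIF4G2), against 9.63%. CAGCTG was at 2 (IleRS and HisRS), against 15%, GAGAG at 4, against 18.3%, and CACGTG, the site of Myc, at 1 (eEF2), against 3.16%. In flank windows CAGCTG was at 15.5%, against 11.7% for all genes, and GAGAG at 24.1%, against 23.2%. All were searched on both strands, and no match says only that these letters are not within 100 bp. At least 1 of these 8 motifs was at 17 of the 29 summits (58.6%), against 51.4% for all genes.

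**Figure D5:**
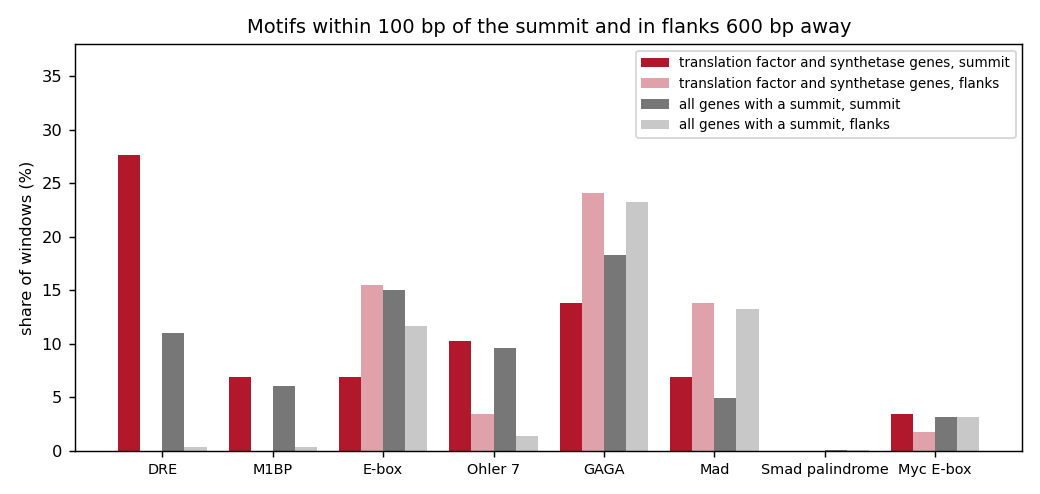
Share of windows (%, vertical axis) that hold each of 8 motifs within 100 bp of the summit (full colour) and in flanks 600 bp away (pale), for the 29 genes (red) and all 2753 genes with a summit (grey). The DRE, the site of DREF, is at 27.6% of the summits of the 29 genes and 11% of those of all genes.

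The DREF site was also frequent in promoters without a strong peak. In the stretch from 250 bases before to 50 after the outermost TSS it was present in 20 of the 86 promoters (23.3%), against 9.36% of all promoters of this length. It was in 8 of the 29 with a thresholded summit (27.6%), against 15.8% of all genes with such a summit. These 8 include eIF6 and eIF3c but not eIF1 or eIF2A. It was also in 12 of the 57 without (21.1%), among them eIF2alpha, eIF4B and eEF1delta, which had no pooled summit. The DREF site and the peak thus did not always go together. CAGCTG was as frequent in promoters, in 19 of the 86 (22.1%), against 17.7% of all genes, and in 14 of the 57 without (24.6%).

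The TCT initiator, a start-site element known from ribosomal protein genes of the fly, was sought as YYCTTTYY on the gene strand with its C within 5 bp of a TSS. It was found at 4 of the 86 genes (eIF3m, eEF2, ThrRS and eIF3f1), against 0.932% of all genes. The first 3 had a thresholded summit, and eIF3f1 was next below the threshold but for CysRS-m. TATAAA at 45 to 15 bp upstream of a TSS was found at 2 (eIF3b and eIF4E7), against 10.6% of all genes, and neither had a thresholded summit.

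Other genes of translation, taken by name from a list of 30 of which 28 matched, had a similar share. A thresholded summit lay at a TSS of 10 of the 28 (35.7%), and 15 had a weaker one. larp, an RNA-binding protein that acts with poly(A)-binding protein, led with 681 (321 in replicate 1 and 369 in replicate 2), followed by GluProRS, the synthetase for glutamate and proline, with 241. The others were Rack1, bel, Lk6, pAbp (the poly(A)-binding protein), Thor (the eIF4E-binding repressor), NAT1, pix and Gcn2, with signals from 155 to 70.75. The GluProRS summit was nearer to a TSS of AP-1sigma, and that of Gcn2 to one of Ugt35D1. Those of Rack1 and pix also had a TSS of mts and of Srp68, in that order, within 500 bp. The list held 8 genes for mitochondrial translation factors, a subgroup set apart after its values were seen. Of these, 0 had a thresholded summit, against 19.7% of all genes, and 7 had a weaker one: mIF2 (69.4, just under the lowest thresholded signal), mEFTu2 (53.6), mEFTs (50.1), mRRF1 (31.8), mEFG1 (28.3), mIF3 (22.7) and mEFTu1 (22.7). mRRF2 had none.

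Set beside other gene classes of protein synthesis and turnover, the 86 genes were intermediate. Against their 33.7%, a thresholded summit lay at 67 of 92 cytosolic ribosomal protein genes (72.8%), 31 of 73 mitochondrial ribosomal protein genes (42.5%) and 9 of 48 proteasome subunit genes (18.8%). The median signals were 119.6 for the 29 genes and 158, 97.9 and 87.9 for these classes in that order, and the median summits were 63, 27, 104 and 176 bp upstream. Another gene's TSS was within 500 bp at 62.1% of the 29, and at 46.3%, 90.3% and 88.9% of the peaks of the other classes. The DREF site was at 27.6% of the 29 summits and at 26.9%, 9.68% and 33.3% of theirs. The TCT initiator was at 4.65% of the 86 genes and at 50% of cytosolic ribosomal protein genes. None of these differences was tested.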

How the data were processed

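Peak lists on dm6 of 2 Mad-eGFP embryo samples were used, as deposited by the authors. Per the text records deposited with the samples, the lists were made from replicate and control alignments, and hold peaks with background as input for the irreproducible discovery rate (IDR), or those kept by its threshold. The control was not used here. Chromatin was sheared to 200 to 800 bp, per the labels. Signals are used as the authors deposited them, and their formula is unknown. The aligner, caller and depth were not given in sources used here. The lists on dm3 were not used.

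Genes and TSSs came from Ensembl release 115 (BDGP6, dm6 coordinates) on 6 arms, and sequence from the RefSeq release 6 genome. A gene had a summit when one lay within 500 bp of any of its transcript starts, and its strongest summit was taken. Replicate signals are those of the strongest overlapping peak (at least 1 bp) of each replicate list. Motifs were sought in 201 bp. Distances and motif searches were tested on simulated data. Python 3.11.15, pandas 2.3.3 and numpy 2.4.6 were used.

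No test was made, since the series has 1 group and the genes form 1 list. The genes, roles and other lists were chosen with earlier results of these data known. Values per replicate are given for the 10 strongest peaks, the 3 strongest of each role, the most unequal replicates, the 5 strongest and the weakest of the weaker peaks, and thresholded peaks with a DREF, M1BP, Mad or TCT site. Prosap, which shares the prefix of the proteasome genes but is not one, was left out. So were mEFG2 and Tor, which matched no symbol of a protein-coding gene. The annotation does hold mTor, which was not counted. It had a thresholded summit with a signal of 110, at -294 bp from its TSS.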

Additional observations from a re-analysis of the deposited data

How the results depend on the processing

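The count of 29 of 86 genes (33.7%, against 19.7% of all genes) stayed within 1.5 times under 7 of 9 alternatives. Among them were summits within 250 bp (27 genes, where 16.6% of all genes had one) and within 1000 bp (32, where 22.4% did). Others were the nearest TSS only (23, where 14.3% of all genes had one) and the outermost TSS only (28, where 17.9% did). With a TSS inside the peak the count was 27, where 14% of all genes had one. The count was 13 with the 1000 strongest peaks and 62 with the whole pooled list, by construction, where all genes had 6.5% and 55%. From 1 replicate each it ranged from 26 to 30. The median signal of 119.6 was 186 with the 1000 strongest peaks, and 56.6 to 74.97 on the scale of a single replicate. The median summit was at -63 bp from the TSS, and at -44 bp within 250 bp, -44 bp for the 1000 strongest peaks, -38 bp for the nearest TSS, -51 bp for the outermost TSS and -56 to -42.5 bp from 1 replicate each. Peaks with another gene's TSS numbered 18 of 29 (62.1%, against 59.5% of all genes), and the direction turned with 9 of 27 (33.3%, against 49.2%) within 250 bp, 6 of 13 (46.2%, against 63.8%) in the 1000 strongest and 14 of 26 (53.8%, against 57.5%) without replicate 1. Without replicate 2 they numbered 20 of 30 (66.7%, against 59.9%). Peaks with the DREF site numbered 8, and 5 in the 1000 strongest, 5 for the nearest TSS and 8 to 11 from 1 replicate each, and their share was above that of all genes in each (lowest 21.7%, against 10.4%, for the nearest TSS). Weaker summits only (33) and peaks strong in both replicates (21) stayed within 1.5 times. The cause of these shifts was not tested. Depth is not known, so a missing weak summit is not evidence of no binding.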
